A study of Homo sapiens with 12 samples.

Results

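INHBE, GDF15, INHBA, INHBB, TGFB1, TGFB2, BMP2 and BMP4, which encode ligands of the TGF-beta family, and FST, which encodes an antagonist of activins, were followed in MDA-MB-231 cells, a triple-negative human breast cancer line. The 9 genes were read from every probe set annotated to 1 of them alone, which gave 17 of the 22215 non-control probe sets and 9 of the 11963 genes with such a probe set. INHBE and GDF15 were chosen because they were much lower with HDAC5 shRNA, and the other 7 with the same comparison known, so values of all 9 in that comparison are a description with no test. Cells had been transduced with lentiviral particles carrying HDAC5 shRNA, LSD1 shRNA or scramble shRNA, and RNA was hybridised to 1 Affymetrix array per sample. The 12 arrays form 4 groups of 3: HDAC5 shRNA and the scramble set taken as its control, and LSD1 shRNA and the scramble set tagged for LSD1. The first scramble set carries no tag and was paired with HDAC5 shRNA for that reason. All 4 groups carry an shRNA construct, so no group shows cells without one. Whether the cells were clones or a selected pool, and what separates the biological replicates, was not stated in the labels, so p-values measure the spread between these samples, which may be technical.

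TGF-beta family ligands are secreted as dimers. They bind pairs of type I and type II serine/threonine kinase receptors, which phosphorylate SMAD2 and SMAD3 for TGF-beta and activin, or SMAD1, SMAD5 and SMAD9 for most BMPs. Activins are dimers of inhibin beta chains, and GDF15 differs from its relatives in signalling through GFRAL and RET. In breast cancer cells TGF-beta is known both for growth restraint and for invasive behaviour, and INHBE and GDF15 are known as genes induced by cellular stress.

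Values are log2 expression per probe set, and a difference of 1 is a 2-fold difference. HDAC5 measured 6.29 ± 0.18 with HDAC5 shRNA and 7.40 ± 0.17 with scramble shRNA, and KDM1A, which encodes LSD1, measured 6.63 ± 0.17 with LSD1 shRNA and 9.72 ± 0.09 with scramble shRNA (SD, n = 3 each). VIM, CD44 and ZEB1, markers of mesenchymal-like cells, were bright in all groups, with group means of 10.2 to 13.8. FN1, also such a marker, was at 12.51 ± 0.39 with LSD1 shRNA and 10.20 ± 0.64 with its scramble. Its means were 12.04 with HDAC5 shRNA and 12.51 with its scramble. PGR and the leukocyte gene PTPRC were dim, at no more than 3.57, as was the endothelial gene CDH5 at no more than 4.35, while the epithelial genes EPCAM and GATA3 lay between 7.21 and 9.15. Means of ESR1 were 5.59 to 6.42, of the T-cell gene CD3D 5.55 to 6.77 and of PECAM1 6.53 to 7.37. CDH1, which encodes E-cadherin, was at 6.40 ± 0.28 with LSD1 shRNA and 4.18 ± 0.23 with its scramble. The HDAC5 arrays and their scramble had medians of 6.58 to 6.64, and the LSD1 arrays and theirs 7.05 to 7.15, so levels were compared across experiments only after quantile normalization of the 12 arrays. Replicates were closer in the HDAC5 experiment (pairwise r of 0.9983 to 0.9990) than in the LSD1 experiment (0.9907 to 0.9977). The 3′ minus 5′ signal of ACTB, a measure of RNA integrity, was 0.68 ± 0.08 with HDAC5 shRNA, 0.90 ± 0.06 with its scramble, 1.43 ± 0.12 with LSD1 shRNA and 1.30 ± 0.06 with its scramble. Its part in the results was not tested. In bulk RNA, fewer cells of a type and less RNA per cell cannot be told apart.

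INHBE encodes the inhibin beta E chain of activin E, a liver-secreted ligand best known in metabolism. Its only probe set, 210587_at, measured 3.91, 3.97 and 3.73 with HDAC5 shRNA, against 9.14, 9.28 and 9.16 with scramble shRNA. All 3 HDAC5 shRNA arrays lay far below all 3 scramble arrays. The HDAC5 shRNA values were also under the lower quartile of their arrays, which lay between 4.59 and 4.65, a range where array signal is close to background. The means were 3.87 ± 0.12 and 9.19 ± 0.08 (SD, n = 3 each), a difference of -5.32 (SE 0.08), or 40.1-fold lower. Because the HDAC5 shRNA values lie close to background, this fold is at best a lower limit of the difference in RNA.

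In the LSD1 experiment INHBE measured 4.42, 6.88 and 4.19 with LSD1 shRNA, against 3.81, 4.68 and 4.43 in scramble arrays A, B and C. A single array, LSD1 shRNA 2, was high, and the groups overlapped. The difference of 0.86 (SE 0.68) did not pass the test (limma adjusted p = 0.559). Without LSD1 shRNA 2 it was -0.0008, so its size rests on that array. Quantile-normalized means of INHBE were 9.36 ± 0.07 in the scramble set of the HDAC5 experiment, 4.87 ± 1.48 with LSD1 shRNA, 4.13 ± 0.14 with HDAC5 shRNA and 4.08 ± 0.43 in the scramble set of the LSD1 experiment. INHBE was thus high in 1 group, and arrays of the lower 3 overlapped. The 2 scramble sets, which carry the same kind of construct by label, were far apart, and experiment and level cannot be told apart between them.

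GDF15 encodes a stress-induced circulating ligand that acts on the brain stem to curb appetite. Its brighter probe set, 221577_x_at, measured 7.02, 7.06 and 7.15 with HDAC5 shRNA, against 10.87, 10.97 and 10.72 with scramble shRNA. No array of either group came near the other group. The means were 7.08 ± 0.07 and 10.85 ± 0.13 (SD, n = 3 each), a difference of -3.77 (SE 0.07), or 13.7-fold lower. A name ending in _x_at means that its probes can also match other transcripts. The further probe set, 221576_at, measured 3.79, 3.71 and 3.39 with HDAC5 shRNA, against 3.92, 4.01 and 3.83 with scramble shRNA. It was under the lower quartile on all 12 arrays, and its difference was only -0.29 (SE 0.10).

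With LSD1 shRNA the brighter GDF15 probe set measured 9.48, 11.26 and 9.85, against 7.30, 9.18 and 8.31 in its scramble arrays. Each LSD1 shRNA array lay above each scramble array, but values within each group were spread over more than 1 unit. LSD1 shRNA 2 and scramble B were the highest of their groups. Whether these arrays form a pair was not tested, and an unpaired fit counts spread shared by pairs as noise. The difference was 1.94 (SE 0.59), and it did not pass the test (limma adjusted p = 0.129). It was 1.40 without LSD1 shRNA 2, the array that was also highest for INHBE. In 1 fit of all 12 arrays, in which the groups share 1 estimate of the spread, the same difference had an adjusted p of 0.0119. The SD of GDF15 was 0.94 in both groups of the LSD1 experiment, against 0.07 and 0.13 in the HDAC5 experiment. The shared estimate is thus below the spread of the LSD1 arrays, which makes this p too small for them. Quantile-normalized GDF15 was 11.04 ± 0.11 in the scramble set of the HDAC5 experiment, 10.05 ± 0.92 with LSD1 shRNA, 8.08 ± 0.94 in the scramble set of the LSD1 experiment and 7.30 ± 0.04 with HDAC5 shRNA. Arrays of the upper 2 of these overlapped, as did those of the lower 2.

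INHBB encodes the beta B chain of activin B and inhibin B. Its probe set 205258_at measured 7.15, 7.02 and 7.29 with HDAC5 shRNA, against 8.35, 8.42 and 8.41 with scramble shRNA. The groups did not overlap, and the difference was -1.24 (SE 0.07), or 2.36-fold lower. With LSD1 shRNA it measured 8.33, 8.02 and 7.70, against 7.15, 7.76 and 6.63 in its scramble arrays. Scramble array B lay above LSD1 shRNA 3, so these groups overlapped. The difference of 0.84 (SE 0.29) did not pass the test (limma adjusted p = 0.178).

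**Figure D1:**
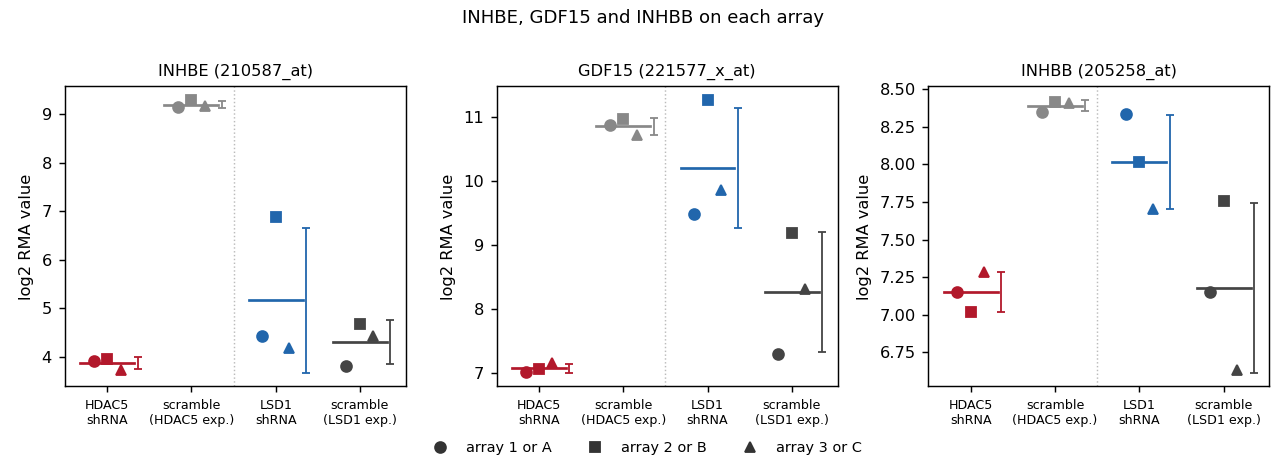
Log2 values of INHBE, GDF15 (brighter probe set) and INHBB on each of the 12 arrays, with the mean as a line and the SD as a bar at its right (n = 3); axes differ between panels. All 3 genes were lower on every HDAC5 shRNA array than on its scramble arrays, and LSD1 shRNA 2 stands above the other arrays of its group for INHBE and GDF15.

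Of the promoter windows in RefSeq (GRCh38.p14), the 250 bases before the start were matched for 7 of the 9 genes; INHBE and BMP2 are named only. The windows of GDF15 and INHBB are shown because these 2 genes were both lower with HDAC5 shRNA and their windows differ in base composition. Both are given 5′ to 3′ on the plus strand, GDF15 at chr19:18385908-18386157 and INHBB at chr2:120345886-120346135, with capitals for matches to TATAAA or GGGCGG on either strand.
GDF15: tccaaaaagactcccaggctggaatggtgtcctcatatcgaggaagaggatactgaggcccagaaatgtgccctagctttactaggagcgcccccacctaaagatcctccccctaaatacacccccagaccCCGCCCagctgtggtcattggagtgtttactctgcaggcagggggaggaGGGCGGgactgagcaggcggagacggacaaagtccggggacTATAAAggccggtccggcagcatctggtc
INHBB: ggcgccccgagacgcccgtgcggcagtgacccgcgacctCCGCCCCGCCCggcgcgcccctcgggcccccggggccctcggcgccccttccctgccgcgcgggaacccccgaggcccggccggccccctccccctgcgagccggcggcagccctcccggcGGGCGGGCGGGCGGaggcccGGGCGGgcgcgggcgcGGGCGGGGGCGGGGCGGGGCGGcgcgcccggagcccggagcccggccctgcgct

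The GDF15 window was 58.4% G and C, close to the median of 58.0% over 35116 windows, and held 1 TATAAA and 2 GGGCGG. The INHBB window was 89.6% G and C and held 10 GGGCGG, some of which overlap each other, and 0 TATAAA. The core of the TATA box, TATAAA, was in 10.7% of all windows and in those of TGFB2, INHBA and GDF15. The core of the GC box, GGGCGG, was in 42.6% of all windows and in those of 5 of the 7 genes. TGATGNAA, the core of the CEBP-ATF response element read by stress factors, was in 3.14% of all windows, in those of 0 of the 7 genes, and in those of 5 genes among the 16 on the stress list that have a window. A match describes letters in these windows alone. TATAAA and GGGCGG were picked with the sequences in view.

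INHBA encodes the beta A chain of activin A, a ligand that many mesenchymal cells secrete. Its brighter probe set, 210511_s_at, measured 6.11, 6.02 and 6.13 with HDAC5 shRNA, against 5.90, 5.87 and 5.89 with scramble shRNA. The HDAC5 shRNA arrays were higher without overlap, by 0.20 (SE 0.06). With LSD1 shRNA it measured 7.36, 7.87 and 7.66, against 7.16, 6.77 and 6.59 in its scramble arrays. The groups again did not overlap, and the difference of 0.79 (SE 0.19) missed the threshold (limma adjusted p = 0.0719). The further probe set, 204926_at, was under the lower quartile on all 12 arrays and differed by -0.09 with HDAC5 shRNA and by 0.14 with LSD1 shRNA (adjusted p = 0.39).

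TGFB1 encodes TGF-beta 1, the founding ligand of the family. Its brighter probe set, 203085_s_at, measured 7.49, 7.68 and 7.58 with HDAC5 shRNA, against 8.01, 7.97 and 7.75 with scramble shRNA. The HDAC5 shRNA arrays were lower without overlap, by a difference of -0.33 (SE 0.08). With LSD1 shRNA it measured 7.89, 8.61 and 7.93, against 8.19, 8.82 and 8.67 in its scramble arrays. These groups overlapped, and the difference of -0.41 (SE 0.24) did not pass the test (limma adjusted p = 0.418). The further TGFB1 probe set differed by -0.12 with HDAC5 shRNA and by -0.10 with LSD1 shRNA (adjusted p = 0.654).

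TGFB2 encodes TGF-beta 2, another TGF-beta isoform. Its brightest probe set of 4, 209909_s_at, measured 7.11, 7.20 and 7.11 with HDAC5 shRNA, against 7.09, 6.98 and 7.27 with scramble shRNA. The groups overlapped, with a difference of 0.03 (SE 0.08). With LSD1 shRNA it measured 8.98, 8.24 and 8.97, against 8.89, 8.35 and 8.22 in its scramble arrays, an overlap with a difference of 0.25 (SE 0.26, limma adjusted p = 0.668). The other 3 probe sets differed by -0.19 to -0.05 with HDAC5 shRNA and by 0.05 to 0.28 with LSD1 shRNA.

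BMP4 encodes a ligand of the SMAD1, SMAD5 and SMAD9 branch. Its probe set 211518_s_at measured 8.24, 8.13 and 8.13 with HDAC5 shRNA, against 7.90, 7.93 and 7.91 with scramble shRNA. The HDAC5 shRNA arrays were higher without overlap, by 0.26 (SE 0.05). With LSD1 shRNA BMP4 measured 10.17, 9.63 and 9.95, against 9.19, 9.08 and 8.72 in its scramble arrays. Every LSD1 shRNA array lay above every scramble array, and BMP4 rose by 0.92 (SE 0.18), or 1.89-fold (limma adjusted p = 0.0416). It was the only 1 of the 17 probe sets to pass the test in that comparison, in which 3.81% of all probe sets passed. The difference stayed between 0.78 and 1.06 when any 1 array was left out, with an adjusted p of 0.0294 without LSD1 shRNA 2. The call was lost without any of the other 5 arrays: the adjusted p was 0.131 without LSD1 shRNA 1, 0.125 without LSD1 shRNA 3, and 0.0791, 0.145 and 0.161 without scramble A, B and C.

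BMP2 encodes a close relative of BMP4. Both of its probe sets were under the lower quartile on all 12 arrays. The brighter, 205290_s_at, averaged 3.77 ± 0.13 with HDAC5 shRNA and 3.95 ± 0.12 with its scramble, and 3.75 ± 0.10 with LSD1 shRNA and 3.57 ± 0.32 with its scramble (SD, n = 3 each). The groups overlapped in both experiments, and a change of BMP2 was not detectable at this signal.

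FST encodes follistatin, a secreted protein that binds activins and keeps them from their receptors. Its brighter probe set, 204948_s_at, measured 9.19, 9.08 and 9.19 with HDAC5 shRNA, against 9.12, 9.04 and 9.06 with scramble shRNA. The groups overlapped, with a difference of 0.08 (SE 0.05). The further probe set, 207345_at, measured 5.79, 5.87 and 6.03 with HDAC5 shRNA, against 4.95, 4.90 and 5.24 with scramble shRNA. Here the HDAC5 shRNA arrays were higher without overlap, by 0.87 (SE 0.10), or 1.82-fold, so the 2 probe sets of FST disagree in that comparison.

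With LSD1 shRNA both FST probe sets were higher on every array than on any scramble array. Probe set 204948_s_at measured 10.86, 10.73 and 10.79 with LSD1 shRNA, against 10.33, 10.05 and 9.54 in its scramble arrays, a difference of 0.82 (SE 0.19, limma adjusted p = 0.0682). Probe set 207345_at measured 7.55, 6.86 and 7.48 with LSD1 shRNA, against 6.85, 6.44 and 5.97 in its scramble arrays, a difference of 0.87 (SE 0.27, adjusted p = 0.128). Neither passed the test.

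**Figure D2:**
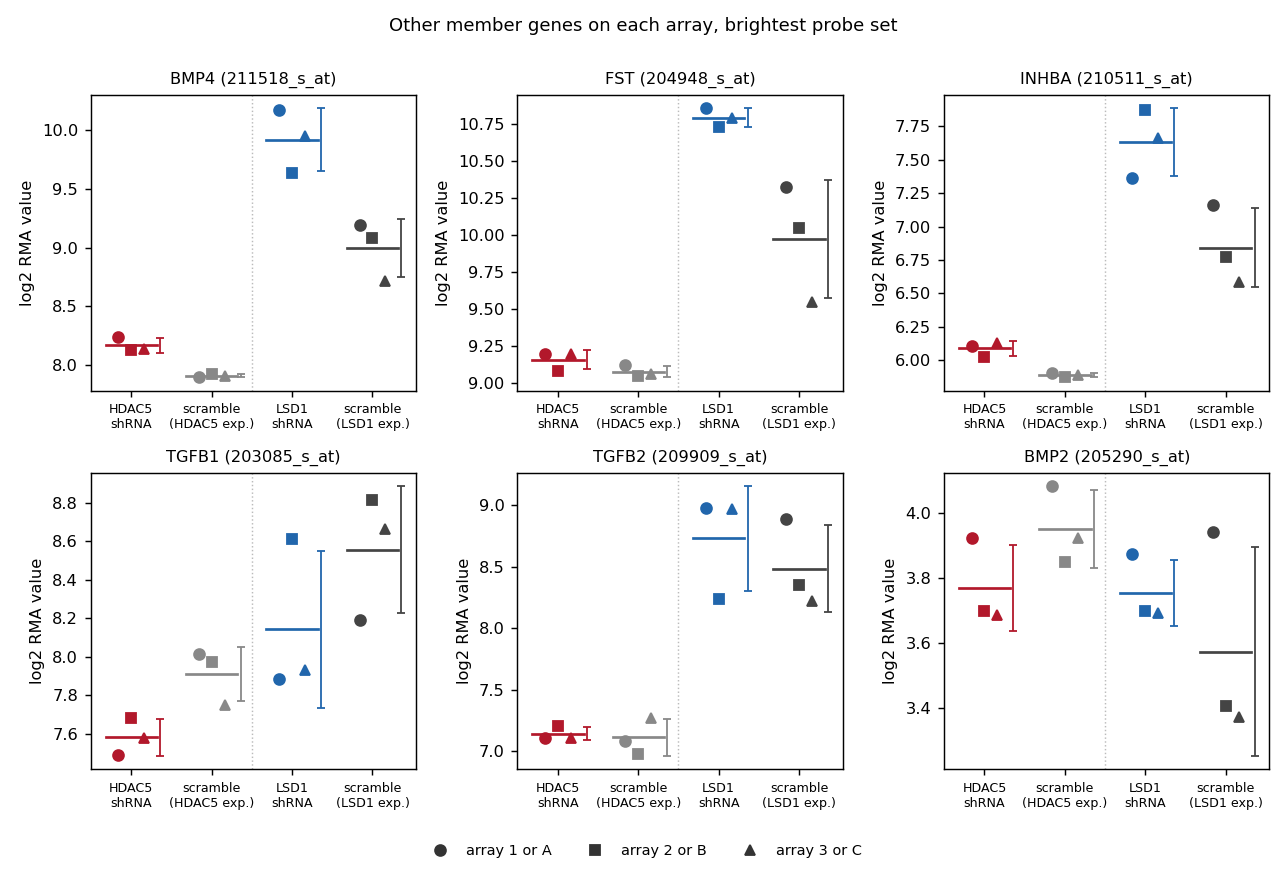
Log2 values of BMP4, FST, INHBA, TGFB1, TGFB2 and BMP2 (brightest probe set of each) on every array, with the mean as a line and the SD as a bar (n = 3); axes differ between panels. BMP4, FST and INHBA were higher on each LSD1 shRNA array than on each of its scramble arrays.

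Set side by side, the genes went different ways with HDAC5 shRNA: 6 of the 17 probe sets were higher and 11 lower, with a median difference of -0.09, against -0.01 over all probe sets. Groups did not overlap for 8 of the 17, which were 3 higher and 5 lower, while they did not overlap for 46.0% of all probe sets. With LSD1 shRNA 15 of the 17 were higher and 2, both of TGFB1, were lower, with a median difference of 0.25. Over all probe sets 49.7% were higher with LSD1 shRNA and the median was -0.0013. Groups did not overlap for 5 of the 17, or 29.4%, all 5 higher, against 24.5% of all probe sets. At an unadjusted p under 0.05 there were 6 of the 17, and 4373 of all. Probe sets of 1 gene are not independent, so these counts describe the set and carry no test.

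**Figure D3:**
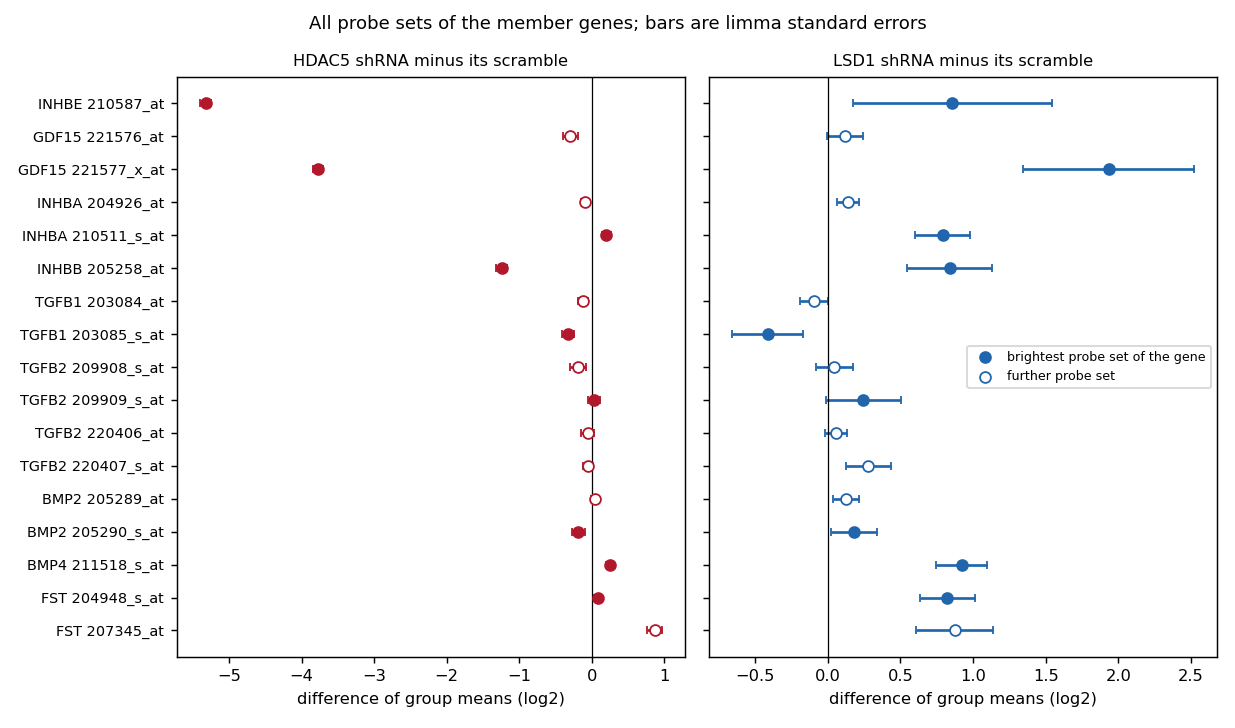
Difference of group means (log2) of each of the 17 probe sets with HDAC5 shRNA (left) and LSD1 shRNA (right), each minus its scramble, with limma standard errors; the scales of the 2 panels differ. INHBE and the brighter GDF15 probe set lie at -5.32 and -3.77 on the left, and 15 of 17 points lie above 0 on the right.

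Genes whose levels followed INHBE and GDF15 most closely were ranked by Pearson's r over the 12 arrays, each centred on the mean of its experiment, among 1540 genes that spanned at least 1 unit. Closest to INHBE were ASS1, which makes argininosuccinate (r = 0.9936), AMT of the glycine cleavage system (0.9930), the lysosomal membrane gene LAMP3 (0.9917), the neuropeptide gene CALCB (0.9916), and the tRNA synthetase genes SARS1 (0.9916) and WARS1 (0.9915). Their differences with HDAC5 shRNA ran between -3.15 for ASS1 and -1.28 for SARS1. GDF15 itself correlated with INHBE at 0.9389. Closest to GDF15 were the alanyl-tRNA synthetase gene AARS1 (0.9898), NMRK1, a kinase of NAD synthesis (0.9875), C2orf68 (0.9866), TIMP4, an inhibitor of metalloproteinases (0.9855), DEPTOR, an inhibitor of mTOR (0.9853), and KCTD13, a ubiquitin ligase adaptor (0.9824). These 6 had differences of -1.84 to -0.84 with HDAC5 shRNA and of 0.47 to 0.84 with LSD1 shRNA. The arrays share these groups, and much of each r reflects the step between HDAC5 shRNA and its scramble arrays.

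Around the 9 genes, 7 lists of pathway genes were read at the brightest probe set of each gene. Over all 11963 genes, 20.7% rose and 22.4% fell with HDAC5 shRNA, with a median difference of -0.02, and 2.65% rose and 1.80% fell with LSD1 shRNA, with a median of 0.01. At an unadjusted p under 0.05 in limma, in either direction, there were 5934 of the 11963 with HDAC5 shRNA and 2637 with LSD1 shRNA. Unadjusted counts of the lists are to be read beside these. LSD1 calls depend on single arrays: 847 probe sets passed with all arrays, 1062 without LSD1 shRNA 2, and 189, 230, 329, 126 and 112 without LSD1 shRNA 1, LSD1 shRNA 3 and scramble A, B and C. Of 108 list genes measured, 53 passed with HDAC5 shRNA and 2 with LSD1 shRNA.

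Of 20 further ligands measured, 2 rose and 1 fell with HDAC5 shRNA, and 1 rose with LSD1 shRNA. GDF11, a ligand close to myostatin, rose by 0.74 with HDAC5 shRNA (SE 0.11, limma adjusted p = 0.000447), although its 2 further probe sets differed by -0.13 and -0.16 and did not pass. INHBC, the inhibin beta C chain, rose by 0.37 (SE 0.08, adjusted p = 0.00541), and its further probe set differed by -0.09. With probe sets averaged, neither GDF11 nor INHBC passed (adjusted p = 0.102 and 0.116). LEFTY1, an inhibitor of nodal signalling, fell to 5.51 ± 0.06 with HDAC5 shRNA, against 6.60 ± 0.06 with scramble shRNA (difference -1.08, SE 0.07, adjusted p = 2.28e-06).

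BMP5, another ligand of the BMP branch, was the further ligand that rose with LSD1 shRNA. It measured 8.02, 7.46 and 7.84 with LSD1 shRNA, against 5.11, 4.44 and 4.56 in its scramble arrays. The groups were well apart, with a difference of 3.07 (SE 0.21, limma adjusted p = 0.00113), and its further probe set gave 3.08 (adjusted p = 0.00111). The call held when any 1 array was left out. With HDAC5 shRNA BMP5 measured 4.74, 4.48 and 4.59, against 4.66, 4.74 and 4.78 with scramble shRNA, which overlap.

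Of 14 receptors and co-receptors measured, 2 rose and 5 fell with HDAC5 shRNA, with a list median of -0.17. TGFBR2, the type II receptor of TGF-beta, fell to 11.10 ± 0.08, against 11.80 ± 0.08 with scramble shRNA (difference -0.69, limma adjusted p = 7.12e-06), and its further probe set fell by 0.32. The type I receptors ACVR1 and ACVR1B fell by 0.45 (adjusted p = 7.28e-05) and 0.26 (adjusted p = 0.00381), but 5 further probe sets of ACVR1B did not pass. ENG, the co-receptor endoglin, fell by 0.25 with HDAC5 shRNA (adjusted p = 0.015), but its further probe set differed by -0.04 (adjusted p = 0.697). That call was lost in 1 fit of 12 arrays (adjusted p = 0.147), with averaged probe sets (0.0674), and without HDAC5 shRNA 1, HDAC5 shRNA 3, scramble 1 or scramble 2 (0.0558 to 0.0639).

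With LSD1 shRNA ENG was the only receptor gene to pass. It measured 9.18, 9.32 and 9.20, against 8.61, 8.15 and 8.16 in its scramble arrays. It rose by 0.93 (SE 0.14, limma adjusted p = 0.0232), while its further probe set differed by 0.18 and did not pass. The adjusted p was 0.0858, 0.084, 0.113 and 0.128 without LSD1 shRNA 1, LSD1 shRNA 3, scramble B and scramble C, and 0.0416 and 0.0164 without LSD1 shRNA 2 and scramble A.

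Of 18 secreted antagonists and proteins of latency and activation measured, 0 rose and 7 fell with HDAC5 shRNA, with a list median of -0.20. At an unadjusted p under 0.05 in limma, 1 was higher and 10 were lower, against 5934 of all 11963 genes in either direction. All 4 genes of the latent TGF-beta binding protein family, LTBP1, LTBP2, LTBP3 and LTBP4, were among those that fell. LTBP1 fell to 10.85 ± 0.12, against 11.94 ± 0.09 with scramble shRNA (difference -1.09, SE 0.07, adjusted p = 2.01e-06), and its further probe set fell by 1.16. LTBP2, LTBP3 and LTBP4 fell by 0.52, 0.62 and 0.63 (adjusted p = 0.00012, 0.000273 and 0.000388). Of the 2 further LTBP4 probe sets, 1 fell by 0.28 (adjusted p = 0.0463) and the other differed by -0.07 (adjusted p = 0.587). With LSD1 shRNA 0 of the 18 passed in limma, and 1 was higher and 2 were lower at an unadjusted p under 0.05. The BMP antagonist CHRDL1 differed by 0.74 (adjusted p = 0.15) and LTBP3 by -0.82 (adjusted p = 0.187). LTBP3 passed without LSD1 shRNA 2 (difference -1.15, adjusted p = 0.0251).

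Of 18 SMADs and SMAD regulators measured, 1 rose and 5 fell with HDAC5 shRNA, all by small amounts. SMAD2 and SMAD3, which carry the TGF-beta and activin signal, fell by 0.26 (limma adjusted p = 0.00116) and 0.31 (adjusted p = 0.00039), although 3 further SMAD3 probe sets did not pass. The repressor TGIF1 fell by 0.35 (adjusted p = 0.00182). SMAD1 of the BMP branch fell by 0.17 (adjusted p = 0.0327), but its further probe set differed by -0.0039 (adjusted p = 0.981). The SMAD1 call was lost in 1 fit of 12 arrays (adjusted p = 0.35), with averaged probe sets (0.307), with the replicate block (0.0929), and without HDAC5 shRNA 2, HDAC5 shRNA 3, scramble 1 or scramble 2 (0.0715 to 0.0968). In 1 fit of 12 arrays SMAD3 and TGIF1 did not pass either (0.143 and 0.36). With LSD1 shRNA 0 of the 18 passed in limma, and 3 were higher and 1 was lower at an unadjusted p under 0.05. SMAD6, an inhibitor of BMP signalling, differed by 1.25 at its brightest probe set (adjusted p = 0.0923), while its 3 further probe sets differed by -0.03, 0.13 and 0.27 and did not pass. SMAD1 differed by -0.63 (adjusted p = 0.078), and its further probe set by -0.05. SMAD6 passed without LSD1 shRNA 3 (adjusted p = 0.031) and SMAD1 without LSD1 shRNA 2 (0.0273).

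Targets of SMAD2 and SMAD3 were split with HDAC5 shRNA: 4 rose and 6 fell of 16 measured. IL11, a cytokine tied to bone metastasis, rose to 8.83 ± 0.17, against 7.59 ± 0.06 with scramble shRNA (difference 1.24, SE 0.08, limma adjusted p = 3.83e-06), and its further probe set rose by 0.54. CCN2, a matrix signalling protein, fell to 10.95 ± 0.06, against 11.68 ± 0.11 with scramble shRNA (difference -0.73, adjusted p = 8.4e-06). JUNB, an AP-1 subunit, and ITGA5, a fibronectin receptor chain, fell by 0.65 and 0.64 (adjusted p = 0.00101 for each). With LSD1 shRNA 0 of the 16 passed in limma, and 3 were higher and 1 was lower at an unadjusted p under 0.05. The actin-binding gene TAGLN differed by 0.88 (adjusted p = 0.067) and IL11 by -0.71 (adjusted p = 0.274). TAGLN passed without scramble A (difference 1.12, adjusted p = 0.0132) and IL11 without LSD1 shRNA 2 (difference -1.07, adjusted p = 0.0333).

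Targets of BMP signalling were split as well: 4 rose and 2 fell of 11 measured with HDAC5 shRNA. ID3 and ID2, inhibitors of helix-loop-helix factors, rose by 1.27 (SE 0.06, limma adjusted p = 6.65e-07) and 0.96 (SE 0.06, adjusted p = 3e-06). ID4 of the same family fell by 0.86 (adjusted p = 9.5e-06), and the transcription factor HEY1, which is also a Notch target, fell by 1.20 (adjusted p = 4.57e-06). With LSD1 shRNA, where BMP4 and BMP5 rose, 0 of the 11 passed in limma, and 3 were higher and 0 lower at an unadjusted p under 0.05. SMAD6, which is also on this list, differed by 1.25 with LSD1 shRNA (limma adjusted p = 0.0923). Its further probe sets differed by -0.03 to 0.27. ID4 differed by 1.01 with LSD1 shRNA (adjusted p = 0.0966).

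Genes of the integrated stress response, the programme run by the factor ATF4, were listed because INHBE and GDF15 are known to be induced in it. With HDAC5 shRNA 0 rose and 16 fell of 17 measured, and at an unadjusted p under 0.05 in limma 0 were higher and 17 were lower. The list median was -1.32, against -0.02 for all genes. CHAC1, which degrades glutathione, fell to 6.42 ± 0.12, against 9.26 ± 0.07 with scramble shRNA (difference -2.84, adjusted p = 2.28e-08). The stress protein gene NUPR1 fell by 2.80 (adjusted p = 4.06e-08), asparagine synthetase ASNS fell by 2.47 (adjusted p = 3.34e-09) and DDIT4, an inhibitor of mTOR complex signalling, fell by 2.19 (adjusted p = 6.56e-08). These genes were listed with the fall of such genes in these arrays already known, so the count is no independent evidence of its direction.

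With LSD1 shRNA 0 of the 17 stress genes passed in limma, and 0 were higher and 1 was lower at an unadjusted p under 0.05. ATF3, a stress-induced factor, differed by 0.82 (adjusted p = 0.501) and PPP1R15A, which restores translation after stress, by -0.77 (adjusted p = 0.25). The mean of the 17 genes relative to the scramble mean was -0.19, 0.55 and -0.03 on LSD1 shRNA arrays 1, 2 and 3, against -0.20, 0.14 and 0.06 on scramble A, B and C. LSD1 shRNA 2, the array of the LSD1 experiment with the highest INHBE and GDF15, was also highest for these genes. Scramble B was likewise the highest of its own group for INHBE, at 4.68, for GDF15, at 9.18, and for these genes. In the HDAC5 experiment the same mean was -1.48, -1.51 and -1.45 with HDAC5 shRNA, against -0.03, 0.07 and -0.04 with scramble shRNA.

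**Figure D4:**
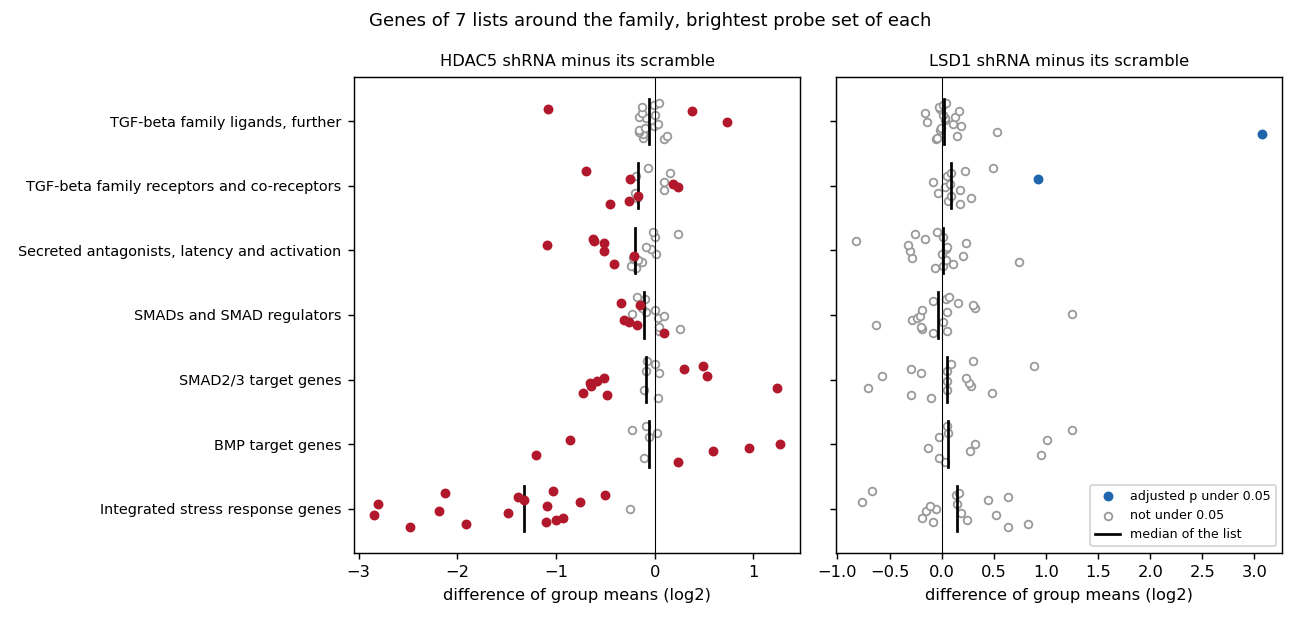
Difference of group means (log2) for every measured gene of the 7 lists with HDAC5 shRNA (left) and LSD1 shRNA (right), each minus its scramble; filled points have an adjusted p under 0.05 and the black line is the list median. The stress genes lie to the left with HDAC5 shRNA at a median of -1.32, and BMP5 and ENG are the filled points with LSD1 shRNA.

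Whether the 2 knockdowns differed in their effect was tested in 1 fit of all 12 arrays. Over all probe sets it passed for 26.9%, and over the 108 list genes measured for 39, or 36.1%. The stress genes among the 108 were listed with the fall of such genes with HDAC5 shRNA already known. The 36.1% is thus not independent of that comparison. The test passed for 20 of the 33 list genes named. Those were named for large differences in 1 of the comparisons that make it up, so that share is raised by their choice. The effects on ENG differed by -1.18, those on BMP5 by -3.20 and those on CHAC1 by -3.37 (HDAC5 minus LSD1 difference; limma adjusted p = 0.000338, 7.74e-06 and 2.06e-05). The value of CHAC1, a stress gene, holds its HDAC5 difference of -2.84. Such genes were listed with their fall known, so its p is no independent evidence. For INHBE, GDF15 and the other 7 genes the difference between effects holds the comparison they were chosen on and was not tested.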

How the data were processed

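RNA of 12 MDA-MB-231 samples was measured on Affymetrix arrays. The deposited values are log2 signals that the authors made with RMA in the affy package, per the submitters' processing notes; the sources used here give neither their versions nor whether 1 run covered all arrays. RMA compresses differences at low signal. Of 22277 probe sets, 62 controls were left out; 19064 had 1 symbol, 1043 several and 2108 none. Symbols of 19052 were updated through RefSeq and 12 were kept. A gene was represented by its brightest probe set on average over the 12 arrays. Each shRNA was compared with its scramble set (6 arrays) by lmFit and eBayes with trend in limma 3.58.1 (R 4.3.3), two-sided, with Benjamini-Hochberg adjustment over 22215 probe sets and a threshold of 0.05. The fit was tested on simulated data. The number of arrays limits the precision, and an exact permutation test of 3 against 3 cannot go below 0.1.

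Genes named are the 9 genes, the targeted genes, per list and comparison up to 4 that passed with the largest difference (or, with none, the 2 largest differences), and the 6 closest to INHBE and to GDF15. Members, lists and tests were chosen with earlier results of these data known. Same-numbered HDAC5 shRNA and scramble arrays did not deviate together (r of -0.047, -0.205 and -0.144), so the numbers were not used as pairs. Pairing was not checked in the LSD1 experiment, whose scramble arrays carry letters. The closing section gives the effect of a replicate block, 1 fit of all arrays, quantile normalization, leaving out dim probe sets, no trend, brightest or averaged probe sets per gene, and leaving out each array.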

Additional observations from a re-analysis of the deposited data

Results flagged for a closer look

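For 4 probe sets of the 9 genes, every array of 1 knockdown lay on the opposite side of its scramble mean from every array of the other; these differences between effects (HDAC5 minus LSD1 difference, log2) were not tested. They were -5.71 for GDF15 (221577_x_at), -2.08 for INHBB, -0.33 for TGFB2 (220407_s_at) and -0.36 for BMP2 (205290_s_at), the last at signals under the lower quartile. The HDAC5 difference of that TGFB2 probe set was only -0.05 (SE 0.07) and turned to 0.0067 without scramble 3, so its direction does not hold.

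For 20 list genes the difference between effects passed in 1 fit of 12 arrays (limma adjusted p of 6.51e-07 to 0.0285). Among ligands and receptors it was -3.20 for BMP5, 0.88 for GDF11, -1.07 for LEFTY1, -0.92 for TGFBR2, -0.63 for ACVR1 and -1.18 for ENG. Among antagonists, latency proteins and SMADs it was -0.87 for CHRDL1, -0.75 for LTBP2 and -1.48 for SMAD6. Among targets it was -1.21 for CCN2, -0.91 for JUNB, 1.94 for IL11, -0.92 for ITGA5, 0.95 for ID3, -1.87 for ID4 and -2.15 for HEY1. Among stress genes it was -2.74 for ATF3, -3.37 for CHAC1, -3.11 for ASNS and -2.95 for NUPR1. Stress genes were listed with the fall of such genes with HDAC5 shRNA already known, so their passing is no independent evidence. The -1.48 of SMAD6 is from its brightest probe set; the further 3 showed LSD1 differences of -0.03 to 0.27. Over all probe sets 5973 of 22215 passed, and these genes had been named for large differences in 1 of the comparisons.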

How the results depend on the processing

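INHBE differed by -0.0008 with LSD1 shRNA without LSD1 shRNA 2, and by up to 1.34 without another array; TGFB2 probe set 209908_s_at, at 0.05 with all arrays, ranged from -0.0485 (without scramble C, and -0.01 without LSD1 shRNA 1) to 0.18 when 1 array was left out. In the HDAC5 comparison 3 TGFB2 probe sets close to 0 turned sign: 209909_s_at to -0.0646 with averaged probe sets, -0.0019 without HDAC5 shRNA 2 and -0.0381 without scramble 2, and 220406_at to 0.04 and 220407_s_at to 0.0067 without scramble 3. Other directions of the 17 probe sets held in both comparisons under the alternatives run. In the HDAC5 comparison 8489 probe sets passed, against 5539 in 1 fit of 12 arrays, and 5319 genes passed at the brightest probe set and 5130 at averaged probe sets, where fewer features were tested. List genes that passed numbered 35 of 108 in 1 fit of 12 arrays, against 53. The median of the HDAC5 differences was -0.18 over brightest probe sets, and averaging a gene's probe sets gave -2.03 for GDF15, 0.05 for INHBA and 0.47 for FST. With the replicate block 7621 probe sets and 49 list genes passed, and among the named genes SMAD1 lost its call (adjusted p = 0.0929). The block was not fitted in the LSD1 comparison, whose scramble arrays carry letters. For some genes, though not for all, LSD1 shRNA 2 and scramble B stood apart from their groups together. ID2 measured 8.42, 7.19 and 8.42 with LSD1 shRNA, against 8.67, 7.19 and 8.57 in scramble A, B and C. Whether these arrays form pairs was not tested, and an unpaired fit counts spread shared by pairs as noise. In the LSD1 comparison 1 fit of 12 arrays called 3485 probe sets, 15 list genes and 6 of the 17 probe sets, against 847, 2 and 1. The median SD of a probe set was 0.13 and 0.11 in the LSD1 groups and 0.07 in both HDAC5 groups. The spread shared in that fit is thus mostly too small for LSD1 arrays and mostly too large for HDAC5 arrays. Averaged probe sets called 2 of the 9 genes in the LSD1 comparison. Leaving out 1 array gave 112 to 1062 probe sets, 1 to 5 list genes and 0 to 1 of the 17. Causes were not tested beyond these constructions. In 1 fit of 12 arrays the HDAC5 calls of INHBC, ACVR1B, ID2 and LTBP3 were also lost (adjusted p = 0.0838, 0.139, 0.0809 and 0.0701). The SD of ID2 was 0.06 with HDAC5 shRNA and 0.03 with its scramble, against 0.71 with LSD1 shRNA and 0.83 with its scramble. Across alternatives, 22 values in 9 named list genes lost their HDAC5 call and 329 kept it.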
